A study of Mus musculus with 4 samples.

Results

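The solute carriers described here move amino acids, organic ions, monocarboxylates, vitamins and metals across membranes, and they were chosen by name. Every gene whose platform symbol belongs to the families Slc1a, Slc5a, Slc6a, Slc7a, Slc16a, Slc22a, Slc30a, Slc38a, Slc39a or Slco was taken, which gave 122 genes read by 179 probes, out of 16593 genes with a symbol and 25697 probes on the array. One of the 122, Slc7a6os, carries a family name but is the gene on the opposite strand to Slc7a6 and is not a transporter gene. The livers came from control mice and from mice labelled as a liver-specific ROCK1 knockout (KO), with 2 Illumina single-colour bead arrays per genotype. Both groups had eaten normal chow ad libitum for 16 weeks and were kept at 22 to 24 °C with 14 h of light and 10 h of darkness. The control arrays carry the label WT, without further detail of their genotype. The strain, age and sex of the mice, the Cre line behind the knockout and whether each array held 1 animal or a pool are details not given in the sources used here. Because of this, the spread behind each p-value is that between arrays and may be technical, and having 2 arrays per group limits the precision.

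Hepatocytes face portal blood across their sinusoidal membrane, where carriers of the Slco and Slc22a families take up bile salts, hormones, drugs and other organic ions for metabolism or export into bile. Amino acids for protein synthesis, gluconeogenesis and the urea cycle enter through the Slc1a, Slc7a and Slc38a families, and several Slc7a proteins reach the membrane only as a dimer with the heavy chain Slc3a2. Zinc and manganese are balanced by Slc39a proteins, which bring metal into the cytosol, and Slc30a proteins, which move it out of the cytosol into organelles or out of the cell.

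Values are given as log2(intensity + 16) after quantile normalisation of the 4 arrays, differences are KO minus control on that scale, and a probe is called where its limma p-value, adjusted over all 25697 probes, is under 0.05. Background fluorescence was left in, so differences of dim probes are smaller than those of their transcripts. A probe is described as above background where it exceeds 7.85, which lies 3 SD above the most frequent value, and where a whole group lies below that limit the text gives the change as a bound or not at all. Medians, counts and plots still hold the fitted differences of such probes. The labelled genotype was checked first. Rock1, the targeted kinase gene, read 8.51 and 8.51 in control and 8.06 and 7.91 in KO, a difference of -0.53 (SE 0.12, limma adjusted p = 0.0181). That call did not survive the omission of control replicate 1 (-0.50), of control replicate 2 (-0.54) or of KO replicate 2 (-0.46). Such a fit leaves 1 array in a group, and fewer probes are then called over the whole array. Here and below, a call lost in this way does not by itself show that the difference rests on the omitted array. On the raw intensity scale the Rock1 groups overlapped, at 341.4 and 263.4 in control against 290.0 and 261.1 in KO. The most frequent raw intensity was 129.4 and 125.4 on the control arrays against 182.3 and 183.5 on the KO arrays. Raw values of a probe this dim are therefore not comparable between the groups. Before normalisation the 179 member probes had median intensities of 140.2 and 128.4 in control liver against 198.7 and 200.03 in KO liver, and after normalisation 50 to 56 of them were above background on each array.

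Of the 179 member probes, 9 were higher and 5 lower in KO liver and 165 were not called. The called share was 7.82%, against 8.02% of all probes, with 3.69% of all probes higher and 4.32% lower, so as a whole these families were called at about the rate of the array. The median difference of the members was 0.02 and that of all probes 0.0011. Most members were dim: 117 of the 179 probes, and every probe of 73 of the 122 genes, were below background on all 4 arrays. Among the 54 member probes that exceeded background on 2 or more arrays, 11 were called (20.4%), where the share over all such probes was 18.3%. The arrays of the groups did not overlap for 86 member probes (48.0%) and for 51.9% of all probes. The 5 called falls lay in Slc22a, Slc38a and Slco, and the 9 called rises in Slc1a, Slc6a, Slc7a, Slc22a, Slc30a and Slc39a. No probe of Slc5a or Slc16a was called.

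**Figure D1:**
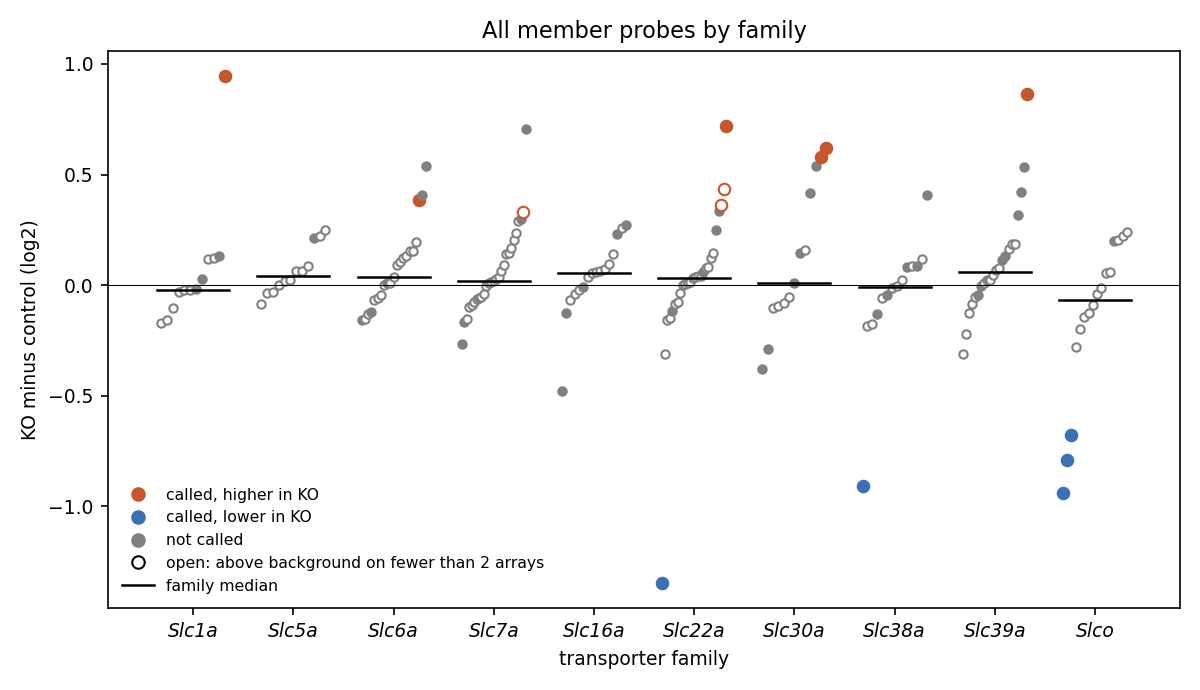
Difference between KO and control (log2, y axis) of all 179 member probes by family (x axis), with called probes in colour, probes above background on fewer than 2 arrays as open symbols and family medians as bars. The medians lie between -0.07 and 0.06, and the called falls are 3 Slco probes, 1 Slc22a probe and 1 Slc38a probe.

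Of 16 Slco probes, for 11 genes, 3 fell, none rose and 13 were not called, a called share of 18.8% against 8.02% of all probes (4.32% lower); 4 of the 16 were bright enough to exceed background on 2 or more arrays. The median difference of the family was -0.07, and it ran from -0.18 to -0.01 over 6 other scalings of the arrays. The 3 genes that fell were Slco1b2, Slco2b1 and Slco1a4, all known as uptake carriers of organic anions.

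Slco1b2, a hepatocyte carrier that takes up bile salts, bilirubin conjugates and drugs such as statins, read 12.53 and 12.56 in control and 11.90 and 11.31 in KO. Both KO arrays were below both control arrays, and KO replicate 2 was the lowest. The difference was -0.94 (SE 0.19, 1.92-fold lower, limma adjusted p = 0.0112). On the raw scale, 5949 and 4439.8 in control against 4422 and 2747 in KO, the groups nearly met. The call was lost without control replicate 1 (-0.97, adjusted p = 0.0733) or control replicate 2 (-0.92, 0.0904), and in the mean with its second probe (-0.48, 0.104), which was below background on all 4 arrays.

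Slco2b1, an uptake carrier of steroid sulphates and other organic anions, read 13.22 and 13.00 in control and 12.42 and 12.45 in KO. The KO arrays lay close together and below both control arrays. The difference was -0.68 (SE 0.14, 1.60-fold lower, limma adjusted p = 0.0125), and the call was lost without control replicate 1 (-0.56, adjusted p = 0.117). On the raw intensity scale the groups overlapped, at 9875 and 6077 in control against 6379 and 6028 in KO. The raw arrays differ in overall brightness, with 75th percentiles of 344.7 and 266.2 in control and 401.9 and 397.5 in KO.

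Slco1a4, another organic anion carrier of the sinusoidal membrane, read 8.92 and 9.18 in control and 8.20 and 8.32 in KO, with no overlap. The difference was -0.79 (SE 0.14, 1.73-fold lower, limma adjusted p = 0.00522), it was -0.46 in the mean with a second, dim probe, and the call was lost without control replicate 2 (-0.67, adjusted p = 0.0597). Its close paralogues Slco1a1, Slco1a5 and Slco1a6 were not called. Slco1a1 exceeded background on 1 control array and the other two on none. Cross-hybridisation among such similar sequences is possible, which leaves the division of signal between them uncertain. Slco2a1, a prostaglandin carrier, read 10.65 and 10.70 in control and 10.89 and 10.85 in KO and was not called (0.20, 95% interval -0.13 to 0.53). The remaining Slco genes, Slco1c1, Slco3a1, Slco4a1 and Slco4c1, were below background on all 4 arrays.

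Slco1b2 and Slco1a4 both lie on chromosome 6, and the 100 bases before their starts, from the RefSeq table of GRCm38.p6, are shown because both genes fell. They are chr6:141629418-141629517 on the plus strand and chr6:141856221-141856320 on the minus strand, each printed 5′ to 3′ in the direction of transcription and covering positions -100 to -1.
Slco1b2: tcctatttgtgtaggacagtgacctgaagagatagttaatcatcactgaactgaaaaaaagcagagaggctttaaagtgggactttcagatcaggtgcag
Slco1a4: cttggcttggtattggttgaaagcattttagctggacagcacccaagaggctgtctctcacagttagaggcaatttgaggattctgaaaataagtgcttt
Neither holds CAAAGTCCA, letters bound by the hepatocyte factor HNF4A, on either strand. That exact string was found in 0.475% of 32851 promoter windows, so a window without it is the usual case and says nothing about the factor.

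Of 26 Slc22a probes, for 16 genes, 3 rose, 1 fell and 22 were not called, a called share of 15.4% against 8.02% of all probes. Among the 6 above background on 2 or more arrays it was 33.3%, against 18.3% of all such probes. Slc22a7, which carries organic anions and nucleotide metabolites, read 10.11 and 10.64 in control and 9.07 and 8.99 in KO. It had the largest difference of the 179 member probes, at -1.34 (SE 0.18, 2.54-fold lower, limma adjusted p = 0.00148). Its intensities before normalisation, 1121 and 1135 against 594.4 and 547.4, did not overlap either. The call held in all 4 fits that left out 1 array and in the other 12 alternatives, with differences from -1.59 to -1.09.

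Slc22a18, an organic cation transporter-like gene of an imprinted cluster, rose from 11.58 and 11.81 in control to 12.35 and 12.48 in KO. The difference was 0.72 (SE 0.15, 1.65-fold higher, limma adjusted p = 0.0143), and both KO arrays lay above both control arrays. The call was lost without control replicate 1 (0.62, adjusted p = 0.112) or KO replicate 2 (0.66, 0.0542), and in the mean with its second probe, which was below background (0.43, 0.0895). The other 2 called Slc22a probes, for the urate carrier gene Slc22a12 and the organic anion carrier gene Slc22a19, were below background on all 4 arrays. They read 7.21 to 7.33 in control and 7.66 to 7.72 in KO, so no fold is given. The call of Slc22a12 was lost in every fit that left out 1 array (adjusted p of 0.0898 to 0.148) and that of Slc22a19 without control replicate 2 (0.109) or KO replicate 2 (0.0742), and in the mean of its probes (0.832). The other 3 Slc22a19 probes were not called.

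Slc22a5, the sodium-coupled carnitine carrier, was not called on any of its 3 probes. The brightest read 10.33 and 9.70 in control and 10.23 and 10.29 in KO (0.25, 95% interval -0.19 to 0.69), so the control arrays spanned the KO arrays. Slc22a23, an orphan carrier, read 9.92 and 9.85 against 9.92 and 9.97 (0.06, 95% interval -0.27 to 0.38).

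**Figure D2:**
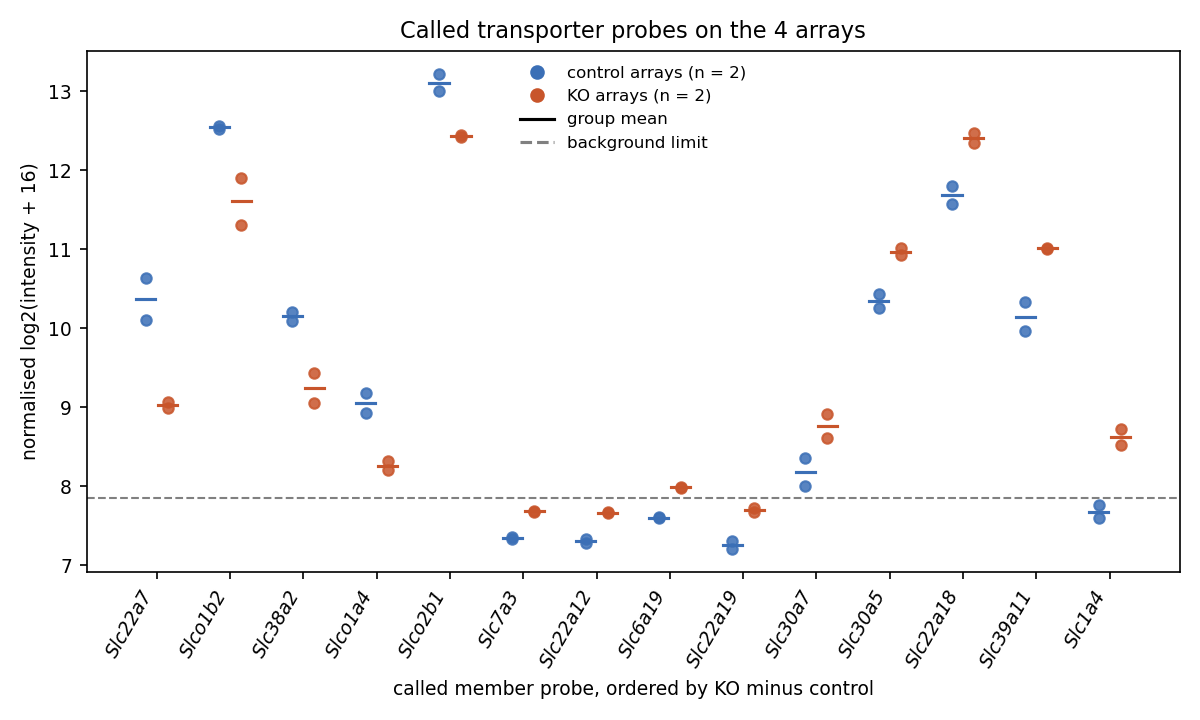
Normalised log2(intensity + 16) (y axis) of the 14 called member probes (x axis) on the 2 control and 2 KO arrays, with group means as bars and the background limit of 7.85 as a dashed line. The arrays of the groups do not overlap for any of the 14, and Slc7a3, Slc22a12 and Slc22a19 stay below the limit on all 4 arrays.

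Among amino acid carriers, Slc1a4 rose while most of the bright members were not called. Slc1a4, a neutral amino acid exchanger for alanine, serine, cysteine and threonine, read 7.76 and 7.59 in control and 8.52 and 8.73 in KO. Both control arrays were below background, and the gene was at least 1.71-fold higher in KO (limma adjusted p = 0.00113). The call held under all 16 alternatives. It was the only call among 12 Slc1a probes for 7 genes (8.33%, against 8.02% of all probes).

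The start of Slc1a4 is shown because the gene is known as a target of the amino acid response, in which the factor ATF4 binds an element with the core TGATGNAA. The window is chr11:20332704-20332803 on the minus strand of GRCm38.p6, from RefSeq, printed 5′ to 3′ for positions -90 to 10, with the only match to that core in capitals. The match lies on the other strand at positions -4 to 4.
Slc1a4: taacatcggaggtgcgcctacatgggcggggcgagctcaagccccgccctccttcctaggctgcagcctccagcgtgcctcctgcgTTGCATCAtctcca
The core was found in 3.97% of the 32851 promoter windows and in 1 of the 15 windows that the table holds for 12 of the 14 genes with a called probe. A match describes letters and does not show binding.

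Slc1a2, a glutamate carrier that in liver is known from perivenous hepatocytes, was read by 3 probes above background. Its brightest probe gave 11.53 and 11.04 in control and 11.19 and 11.64 in KO, with overlap (0.13, 95% interval -0.32 to 0.58), and the other bright probes gave 0.03 and -0.02. Slc1a5, a glutamine carrier, was below background on all 4 arrays on both probes.

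In the Slc38a family, the sodium-coupled neutral amino acid carriers, 1 of 14 probes fell and 13 were not called (7.14% called, against 8.02% of all probes). The probe belonged to Slc38a2, a carrier that rises with amino acid shortage in cultured cells, and read 10.21 and 10.10 in control and 9.44 and 9.05 in KO (-0.91, SE 0.17, limma adjusted p = 0.00711). The brightest Slc38a2 probe disagreed, with 10.34 and 10.23 in control and 10.11 and 10.61 in KO (0.08, adjusted p = 0.854). The call of the first was lost without control replicate 1 (-0.85, adjusted p = 0.0682) or control replicate 2 (-0.98, 0.0511), and the mean of all 3 Slc38a2 probes was not called (-0.34, 0.118). Slc38a3, the glutamine carrier of hepatocytes, read 11.81 and 12.29 in control and 12.06 and 12.22 in KO (0.09, 95% interval -0.30 to 0.48). Slc38a4, a carrier of alanine and other neutral amino acids in liver, read 10.94 and 11.34 against 11.03 and 10.98 (-0.13, 95% interval -0.51 to 0.25). In both genes the KO values lay within the control range.

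Of 27 Slc7a probes 1 was called (3.70%) and of 21 Slc6a probes 1 was called (4.76%), against 8.02% of all probes. Both were higher in KO and both were dim. Slc7a3, a cationic amino acid carrier, was below background on all 4 arrays (7.36 and 7.34 in control, 7.68 and 7.69 in KO, limma adjusted p = 0.0457), and its call was lost without any 1 array (adjusted p of 0.129 to 0.173). Slc6a19, a neutral amino acid carrier of kidney and gut, read 7.59 and 7.61 in control, below background, and 7.99 and 7.98 in KO. It was at least 1.10-fold higher (limma adjusted p = 0.0342), and its call was likewise lost without any 1 array (adjusted p of 0.0813 to 0.154) and with background correction and 75th percentile scaling (0.0619).

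Slc7a2, the hepatic carrier of arginine and lysine, read 9.28 and 9.98 in control and 10.45 and 10.21 in KO on its brightest probe. The difference of 0.70 (SE 0.22) was not called (adjusted p = 0.0718). It was called with 75th percentile scaling (0.00134), also after background correction (0.00021), and without control replicate 2 (1.07, 0.0302). A second bright probe read -0.26, and the mean of all Slc7a2 probes was 0.12 (0.718). Slc7a5, a light chain for large neutral amino acids, read 8.56 and 8.54 against 8.39 and 8.37 (-0.17, 95% interval -0.43 to 0.09). Its heavy chain partner Slc3a2 is described with the other partner genes.

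The Slc6a genes for taurine, betaine and GABA were bright. Slc6a13, a carrier of GABA and taurine, read 13.16 and 13.13 in control and 13.55 and 13.56 in KO (0.41, SE 0.12, adjusted p = 0.0620). Slc6a6, the taurine carrier, read 11.50 and 11.63 against 11.96 and 12.25 (0.54, SE 0.16, adjusted p = 0.0637). Neither was called. The arrays did not overlap for either, as was the case for 64.6% of all probes above background on 2 or more arrays. Slc6a6 was called under 7 of 16 alternatives and Slc6a13 under 3. Slc6a12, the betaine carrier, read 11.46 and 11.98 against 11.63 and 11.49 (-0.16, 95% interval -0.56 to 0.25), and Slc6a8, the creatine carrier, was above background on 1 array of each group.

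Monocarboxylate and sodium-coupled vitamin and sugar carriers gave no call in 16 Slc16a and 12 Slc5a probes, where 8.02% of all probes were called. Slc16a1, a carrier of lactate and ketone bodies, was below background on all 4 arrays. Slc16a10, the aromatic amino acid carrier, read 8.73 and 8.83 in control and 8.66 and 8.64 in KO (-0.13, 95% interval -0.40 to 0.15). Slc16a6, whose zebrafish counterpart exports ketone bodies from liver, read 0.23 on its brightest probe and -0.48 (adjusted p = 0.0729) on another bright probe. Slc16a9 read 8.04 and 7.92 against 7.93 and 8.01, with overlap. In Slc5a only Slc5a6, the carrier of biotin and pantothenate, was above background (9.25 and 9.20 against 9.45 and 9.43, difference 0.21, adjusted p = 0.415), while the glucose carrier gene Slc5a1 and the inositol carrier gene Slc5a3 were below it on all 4 arrays.

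Of each of the zinc carrier genes Slc39a11, Slc30a5 and Slc30a7, 1 probe was called higher in KO liver, and no Slc30a or Slc39a probe was called lower. The called shares were 15.4% of the Slc30a and 4.55% of the Slc39a probes, on either side of the 8.02% of all probes. Above background on 2 or more arrays were 8 Slc30a and 9 Slc39a probes. Their called shares were 25% and 11.1%, against 18.3% of all such probes. Of 13 Slc30a probes for 9 genes 2 rose and 11 were not called, and of 22 Slc39a probes for 12 genes 1 rose and 21 were not called. Slc39a11, a zinc importer of the ZIP family, read 9.97 and 10.33 in control and 11.00 and 11.02 in KO (0.86, SE 0.17, 1.82-fold higher, limma adjusted p = 0.0101). Its call was lost only without control replicate 1 (0.68, adjusted p = 0.107) among the 16 alternatives.

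Slc30a5 and Slc30a7 load zinc into the early secretory pathway, where zinc enzymes are made. Slc30a5 read 10.26 and 10.43 in control and 10.92 and 11.01 in KO on the called probe (0.62, SE 0.16, 1.54-fold higher, limma adjusted p = 0.0330). Its other probe, a little brighter, read 10.35 and 10.55 against 10.96 and 11.02 (0.54, adjusted p = 0.0611), so both probes had KO above control. Slc30a7 read 8.36 and 8.01 in control and 8.91 and 8.62 in KO (0.58, SE 0.15, adjusted p = 0.0400), while its other bright probe read 0.01 and overlapped. The call of Slc30a5 was lost without any 1 array (adjusted p of 0.0537 to 0.190). That of Slc30a7 did not survive the omission of control replicate 1 (0.73, 0.0532), of control replicate 2 (0.41, 0.279) or of KO replicate 1 (0.43, 0.166). It was also lost in the mean of its probes (0.30, 0.287), and without an intensity trend in the variance (0.0514). Slc30a6, the partner of Slc30a5 in a zinc-transporting dimer, read 9.55 and 9.41 in control and 9.16 and 9.04 in KO and was not called (-0.38, adjusted p = 0.141).

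Slc39a7, which releases zinc from the endoplasmic reticulum, read 0.42 and 0.53 on its bright probes (adjusted p of 0.151 and 0.0670), and Slc39a13, of the same compartment and the Golgi, 0.32 (adjusted p = 0.146). None of these probes was called. Their arrays did not overlap, which held for 64.6% of all probes above background on 2 or more arrays. Slc30a1, the zinc exporter of the plasma membrane, read 9.07 and 8.95 against 8.67 and 8.78 (-0.29, adjusted p = 0.232). Slc30a10, a manganese exporter, read 10.68 and 10.10 against 10.84 and 10.76 (0.41, adjusted p = 0.242). The importers Slc39a14, Slc39a8 and Slc39a4 differed by -0.0040, 0.02 and 0.13 on their brightest probes, with overlapping arrays and 95% intervals of -0.23 to 0.22, -0.22 to 0.26 and -0.33 to 0.60.

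Slc30a5 and Slc39a11 each had a probe called higher, and their starts are shown as windows that match the metal response element. Zinc genes can carry that element, whose core is TGCGCNC or TGCACNC. Among the Slc39a11 starts the window was taken because it held TGCGCNC, so its match was fixed by that choice. The windows are chr13:100833418-100833517 and chr11:113650083-113650182, both on the minus strand of GRCm38.p6, from RefSeq, printed 5′ to 3′ for positions -90 to 10. Capitals mark the match to TGCGCNC, which in both lies on the other strand, at positions -48 to -42 in Slc30a5 and -15 to -9 in Slc39a11.
Slc30a5: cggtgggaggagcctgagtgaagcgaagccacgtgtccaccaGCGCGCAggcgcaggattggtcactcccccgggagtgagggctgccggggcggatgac
Slc39a11: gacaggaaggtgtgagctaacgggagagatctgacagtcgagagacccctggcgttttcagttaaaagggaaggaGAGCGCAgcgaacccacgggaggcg
TGCGCNC was found in 15.4% and TGCACNC in 12.6% of the 32851 promoter windows, and in 2 and 1 of the 15 windows of genes with a called probe, so such matches are common. The TGCACNC match lay in a window of a second Slc39a11 start. The Slc30a7 window held neither.

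**Figure D3:**
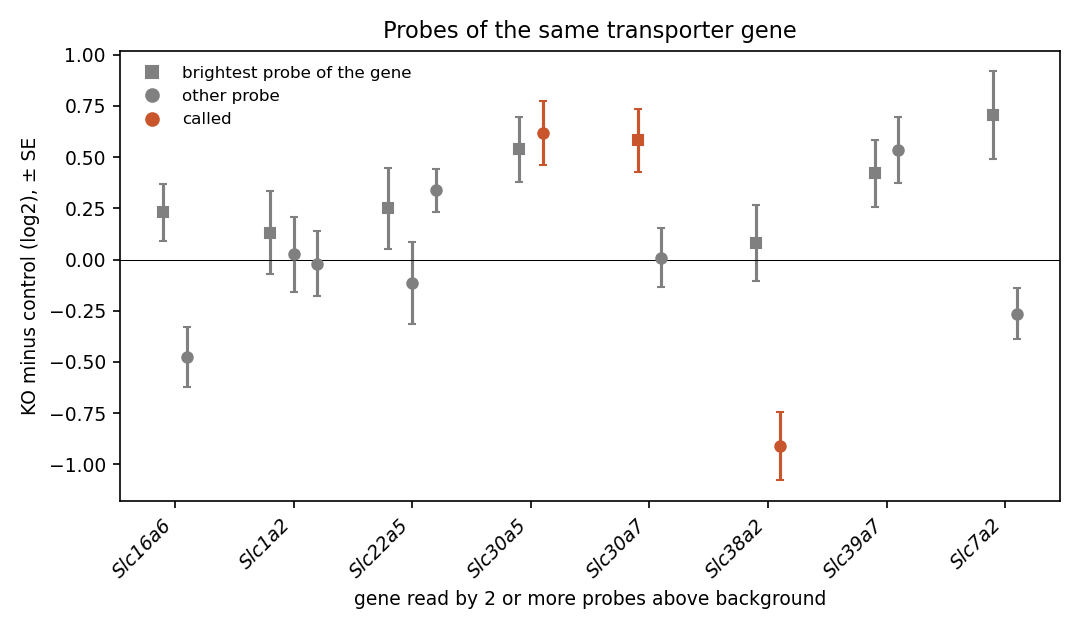
Difference between KO and control (log2, with SE, y axis) for each probe above background on at least 2 arrays, in the 8 member genes that have 2 or more such probes (x axis), with the brightest probe of a gene as a square. Probes of Slc30a5, Slc39a7 and Slc1a2 lie close together, while those of Slc38a2, Slc7a2, Slc16a6 and Slc30a7 differ by more than 0.5.

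In those last 4 genes the other bright probe differed from the brightest by between -0.99 and -0.57 on the log2 scale, and where the probes lie on the transcripts was not analysed here. Of the 14 called probes, those of Slc22a7 and Slc1a4 kept their call whichever array was left out. The probes of Slc30a5, Slc6a19, Slc7a3 and Slc22a12 kept it in none of those 4 fits.

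**Figure D4:**
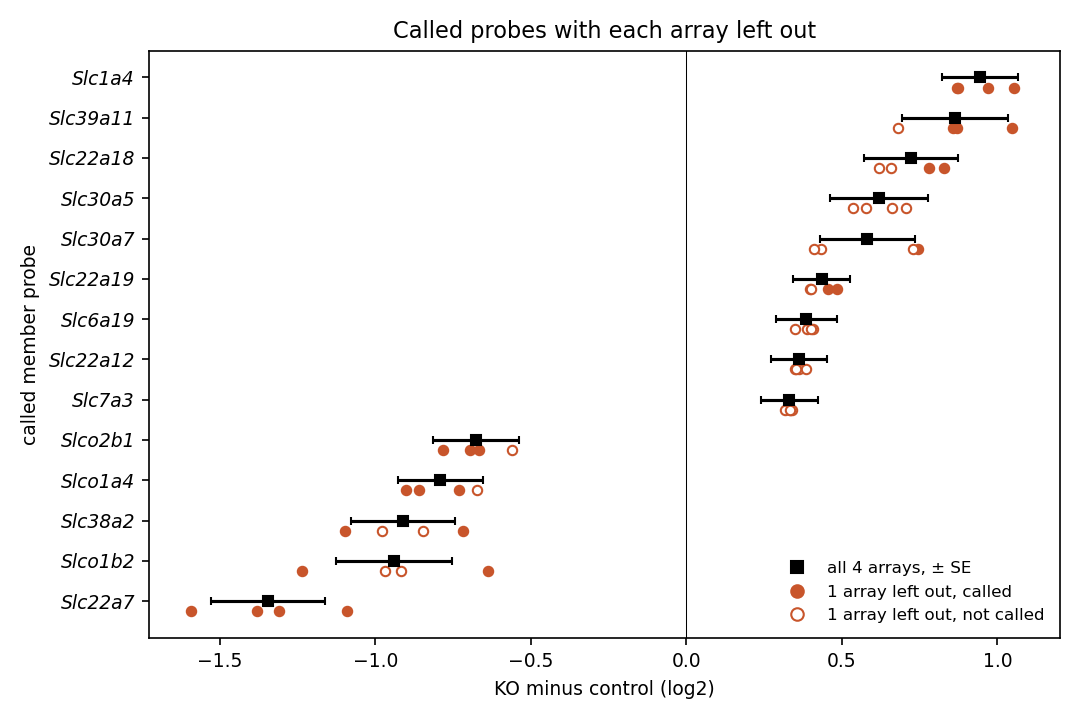
Difference between KO and control (log2, x axis) for the 14 called member probes (y axis), with all 4 arrays (square, with SE) and with each array left out in turn (circles, filled where still called). All circles lie on the same side of 0 as the squares, and only Slc22a7 and Slc1a4 have 4 filled circles.

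Genes that work with these carriers were read by their brightest probes. Over all genes read in that way 697 rose and 769 fell among 16593. Of all probes above background on 2 or more arrays, 18.3% were called. Of 9 measured partner genes 1 rose, 1 fell and 7 were not called. Slc3a2, the heavy chain of Slc7a5 and related light chains, read 8.36 and 8.22 in control and 7.40 and 7.56 in KO and was at least 1.35-fold lower (limma adjusted p = 0.00147). Slc9a3r1, a scaffold that anchors membrane proteins, rose from 11.68 and 11.72 to 12.54 and 12.61 (0.88, adjusted p = 0.00356), and both calls held in all 4 fits that left out 1 array. Of 28 other solute carrier genes of liver none rose, 2 fell and 26 were not called. Slc51b, a subunit of the basolateral bile salt exporter, was at least 1.04-fold lower (adjusted p = 0.00486), a call lost with 75th percentile scaling (0.0539). Slc17a8, a vesicular glutamate carrier, read 11.35 and 9.59 in control and 9.19 and 8.80 in KO (-1.48, adjusted p = 0.0464). That call held under 9 of 16 alternatives, and the difference was -0.59 (0.159) without control replicate 1 and -1.29 (0.133) without KO replicate 2. Slc10a1, the sodium-coupled bile salt carrier, read 8.04 and 8.08 against 7.66 and 7.81 and was not called (adjusted p = 0.0861), with both KO arrays below background.

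Of 22 measured metal handling genes 4 rose, none fell and 18 were not called, beside 697 that rose and 769 that fell among all 16593 genes. The called share of all probes above background on 2 or more arrays was 18.3%. Hamp2, a hepcidin gene, rose from 9.75 and 9.32 to 10.72 and 11.72 (1.69, adjusted p = 0.00355), a call lost without control replicate 2 (0.0588) and with a robust variance model (0.0648). Tfrc, the transferrin receptor gene, rose by 0.69 (adjusted p = 0.0143), and Hfe, a partner of that receptor, by 0.73 (0.0145). Both calls were lost without control replicate 1 (0.0884 and 0.111) or control replicate 2 (0.105 and 0.0875), and that of Hfe also without KO replicate 2 (0.0621). Sod1, a copper and zinc enzyme gene, rose by 0.43 (0.0219), but lost its call with 75th percentile scaling (0.28, 0.508), without control replicate 2 (0.115) or without KO replicate 2 (0.0885). Mt1, a zinc-binding metallothionein gene, read 13.54 and 11.60 in control and 12.87 and 12.79 in KO and was not called (0.26, adjusted p = 0.781), and the zinc sensor gene Mtf1 was below background.

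Among 22 genes of the amino acid response, 2 were higher, 2 lower and 18 not called, beside 697 higher and 769 lower among all 16593 genes. The called share of all probes above background on 2 or more arrays was 18.3%. Asns, the asparagine synthetase gene, was at least 2.76-fold higher (limma adjusted p = 0.00241), and Ddit4, an inhibitor of mTORC1, rose by 0.86 (0.00241). Vldlr, a lipoprotein receptor gene, fell (-0.89, 0.00223). Atf4, the gene of the response's transcription factor, read 10.05 and 10.12 in control and 8.18 and 9.60 in KO (-1.19, adjusted p = 0.0495) and was -0.48 (0.148) without KO replicate 1. The Atf4 call was also lost without control replicate 1 (0.175) or control replicate 2 (0.218), and that of Asns with a robust variance model (0.0863). The Atf4 call held under 7 of 16 alternatives and the Asns call under 15 of 16.

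Of 38 genes of amino acid catabolism and the urea cycle 5 rose, 7 fell and 26 were not called. Ass1, the argininosuccinate synthase gene of the urea cycle, rose from 13.45 and 13.85 in control to 14.82 and 15.05 in KO (1.29, adjusted p = 0.000434), and Oat and Gnmt rose by 0.78 and 0.88. Glul, which encodes glutamine synthetase, fell from 9.34 and 8.92 to 7.95 and 8.04 (-1.14, 0.00129), and Ahcy, Tdo2 and Uroc1 fell as well (-1.29, -1.10 and -0.92). These 7 calls held in all 16 alternatives. Cbs and Mat1a also rose (0.83 and 0.39), and Otc, Prodh2 and Fah fell (-0.92, -0.73 and -0.42), but each of these 5 lost its call with an array left out. Without control replicate 1 the calls of Cbs (0.68, adjusted p = 0.0675) and Mat1a (0.41, 0.0532) were lost. Without control replicate 2 those of Otc (-0.77, 0.0597), Prodh2 (-0.43, 0.222), Fah (-0.33, 0.157) and Mat1a (0.33, 0.104) were lost. Leaving out KO replicate 1 ended those of Prodh2 (-0.64, 0.101) and Fah (-0.37, 0.0858), and leaving out KO replicate 2 that of Mat1a (0.33, 0.0990). With 75th percentile scaling Mat1a was 0.17 (0.808). Of 10 carnitine and creatine genes none was called. The medians of the metal, amino acid response, catabolism and carnitine lists were 0.06, -0.05, 0.18 and -0.03 (the second ran from -0.08 to 0.07 over 6 other scalings), beside 0.0037 over all genes, of which 697 rose and 769 fell among 16593.

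Markers of cell types and liver zones were measured beside the carriers, and their part in these results was not tested. Over all genes 697 rose and 769 fell among 16593. Of all probes above background on 2 or more arrays, 18.3% were called. In whole liver, fewer cells of a type and less RNA per cell cannot be told apart. Of 19 hepatocyte markers 1 rose and 3 fell (median -0.09, and -0.46 to -0.07 over 6 other scalings). The falls were Serpina1e, Serpina1a and Serpina1c, close paralogues of the alpha-1-antitrypsin family. The rise, that of the fibrinogen gene Fga (0.45), was lost with 75th percentile scaling (0.05, adjusted p = 0.972), and the Serpina1e call with a robust variance model (0.303). The summed intensity of these markers before normalisation was 742429 to 758748 in control and 585296 to 664759 in KO. The median marker read 15.74 and 15.79 in control and 14.99 and 14.87 in KO, where the highest mean of any probe was 16.00. Differences of probes so near the ceiling may be compressed, which was not tested. Of the 19 markers 16 were above background on at least 1 array. The Alb probe, however, read only 7.63 to 7.92.

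Of 13 endothelial markers none rose and 2 fell (median -0.20, summed intensity before normalisation 10050.2 to 15595 in control and 9608 to 10743 in KO). Clec4g, a sinusoidal endothelial lectin gene, fell (-0.94, adjusted p = 0.00323), a call kept in all 16 alternatives, and Fcgr2b fell (-0.76), a call lost without control replicate 1 (0.0617) or control replicate 2 (0.0748). Of 14 Kupffer and myeloid markers none rose and 3 fell (median -0.12, summed intensity before normalisation 4504 to 7195 in control and 6228 to 6564 in KO). Without control replicate 1 all of these calls, for Adgre1 (-0.51, adjusted p = 0.170), Clec4f (-0.54, 0.173) and S100a9 (0.126), were lost. S100a9 was below background on all 4 arrays. The Adgre1 and S100a9 calls were also lost without KO replicate 1 (0.115 and 0.0849), those of Clec4f and S100a9 without KO replicate 2 (0.118 and 0.0692), and that of Clec4f without control replicate 2 (0.0943).

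Of 7 cholangiocyte markers 1 rose (Sox9), of 14 stellate and fibroblast markers 1 fell (Col3a1), of 12 lymphocyte markers 1 rose (Ms4a1), of 6 red cell markers 1 rose and 1 fell (Hbb-b2 and Hbb-bt), and of 19 markers of kidney, pancreas, gut and fat 1 fell (Amy2a5). The cholangiocyte median was 0.32 (0.30 to 0.38 over 6 other scalings), with 3 of the 7 markers below background on all 4 arrays. The medians of the other lists were, in the same order, -0.01, -0.06, -0.0052 and -0.0063. Without control replicate 1 the calls of Sox9 (0.0826), Col3a1 (0.0912), Ms4a1 (0.115) and Hbb-b2 (0.162) were lost. Leaving out control replicate 2 or KO replicate 2 also ended that of Sox9 (0.0996 and 0.0580), and leaving out KO replicate 1 those of Col3a1 (0.0529) and Hbb-b2 (0.0698).

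Of 13 periportal markers 1 rose (Ass1, 1.29) and 4 fell, namely Hsd17b6 (-1.97), Pck1 (-1.14), Otc (-0.92) and Pigr (-0.92). Of 16 pericentral markers 5 rose, namely Cyp2a5 (1.13), Oat (0.78), Gulo (0.65), Axin2 (0.57) and Cyp1a2 (0.46), and 2 fell, namely Glul (-1.14) and Rgn (-1.05). All periportal and all but 3 pericentral markers were above background on at least 1 array. The called share of all probes above background on 2 or more arrays was 18.3%. The calls of Ass1, Hsd17b6, Pck1, Cyp2a5, Oat and Glul held in all 16 alternatives. Without control replicate 1 those of Pigr (adjusted p = 0.123), Gulo (0.0620), Axin2 (0.0533) and Cyp1a2 (0.132) were lost, and without control replicate 2 those of Otc (0.0597), Pigr (0.216), Gulo (0.0514), Axin2 (0.261), Cyp1a2 (0.160) and Rgn (0.109). Leaving out KO replicate 1 ended the calls of Pigr (-0.48, 0.115) and Rgn (0.0532), and leaving out KO replicate 2 those of Axin2 (0.157) and Cyp1a2 (0.210). With 75th percentile scaling Cyp1a2 was not called (0.242).

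Of 21 sex-biased liver genes 3 rose and 2 fell, beside 697 that rose and 769 that fell among all 16593 genes. The called share of all probes above background on 2 or more arrays was 18.3%. The rises were the male-biased genes Cyp4a12b (2.49), Cyp4a12a (1.01) and Elovl3 (0.95), and the falls were the Y-linked genes Eif2s3y and Kdm5d. Eif2s3y read 10.87 and 10.73 in control and 9.96 and 9.85 in KO (-0.90, adjusted p = 0.00522), and Kdm5d was at least 1.34-fold lower (0.0151). Xist was below background on all 4 arrays. A robust variance model ended the Cyp4a12b call (0.133). The call of Eif2s3y was lost without control replicate 1 (0.0621), those of Elovl3 and Kdm5d without control replicate 2 (0.0846 and 0.128), and that of Kdm5d without KO replicate 1 (0.0717).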

How the data were processed

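Total RNA of mouse liver was hybridised to single-colour Illumina arrays after Cy3-streptavidin labelling, per the labels. The deposited intensities are linear bead summaries with background left in and, per the file headers, without detection p-values. The authors' deposited log2 values rank the probes within each array as the intensities do, with array medians of 7.63. How they were normalised is not known from the sources used here, and they served as an alternative.

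Intensities were quantile-normalised, an offset of 16 was added and log2 was taken. limma 3.58.1 (R 4.3.3; lmFit, eBayes with an intensity trend, two-sided, without a block) gave p-values, adjusted by Benjamini-Hochberg across the 25697 probes. The fit was tested on simulated data. All 179 member probes were matched by gene identifier to a RefSeq table of GRCm38.p6. The background limit of 7.85 was chosen after the data were seen. For a bound, arrays of the dim group were set to at least the smallest value over that limit.

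Each gene's brightest probe stands for it. Members named are those with a called probe, the 3 brightest of each family and a list of fixed genes, and for other lists the called genes; a few others were named after their values were seen. The members and the 18 other lists were chosen with earlier results of these data known. Same-numbered arrays did not deviate together (r = -0.057), and no label pairs them. Alternatives covered offset, background, scaling, the authors' values, variance model, block, filter, probe choice and each array left out. Figures used matplotlib 3.10.9.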

Additional observations from a re-analysis of the deposited data

How the results depend on the processing

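With each array left out in turn, the member probes called ranged from 2 to 6 higher (9 with all arrays) and from 2 to 6 lower (5 with all arrays), and over all probes from 294 to 799 higher (949) and from 488 to 880 lower (1111). With the mean of all probes of each gene, which tests fewer features, 5 member genes were higher and 3 lower, and over all genes 529 and 612. With the replicate number as a block, 15 member probes were higher and 6 lower, and over all probes 1440 and 1480; the 14 calls remained, and Slc7a2, Slc6a6 and Slc6a13 were among those added (adjusted p of 0.00666, 0.0270 and 0.0408). The numbers share only a label, so this is no paired result. With 75th percentile scaling the median of all probes was 0.08, and 12 of the 14 called members were called.

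Over 46 named probes and 16 alternatives, 723 values were computed. Of these, 625 kept direction and side of the threshold, 43 lost a call, 22 gained one and 33 changed sign, none of the last for a called probe. The sign changes with 75th percentile scaling were Slc16a1 (0.081), Slc16a9 (0.041), Slc1a5 (0.078) and Slc39a14 (0.067), and with background correction first they were Slc16a9 (0.0055) and Slc39a14 (0.036). With the mean of probes they were Slc16a6 (-0.035), Slc1a2 (-0.0088), Slc38a2 (-0.34), Slc39a14 (0.010), Slc39a4 (-0.044) and Slc39a8 (-0.14). Across the fits that left out 1 array, signs changed for Slc16a1 from -0.099 to 0.020, Slc16a9 from -0.068 to 0.049, Slc1a2 from -0.11 to 0.38, Slc1a5 from -0.083 to 0.042, Slc1a6 from -0.034 to 0.29, Slc22a5 from -0.063 to 0.55, Slc38a2 from -0.17 to 0.33, Slc38a3 from -0.16 to 0.33, and likewise for Slc38a4 from -0.34 to 0.074, Slc39a14 from -0.032 to 0.027, Slc39a4 from -0.21 to 0.48, Slc39a8 from -0.059 to 0.10, Slc5a1 from -0.043 to 0.22, Slc5a3 from -0.011 to 0.14, Slc6a12 from -0.42 to 0.10, Slc6a8 from -0.25 to 0.0061 and Slc7a6os from -0.17 to 0.049. The causes were not tested. Probes near the background limit carry little signal, which limits what can be read from the 117 member probes below it.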

Other observations

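Of 27 measured transcriptional and signalling regulators of transporter genes, 3 rose, 3 fell and 21 were not called, with a median difference of 0.04. Over all 16593 genes 697 rose and 769 fell. The called share of all probes above background on 2 or more arrays was 18.3%. Bcl6, a repressor known from growth hormone signalling in liver, rose by 1.62 (limma adjusted p = 0.000302), and Cebpa, a hepatocyte factor, by 1.02 (0.00246); both calls held in all 16 alternatives. Lamtor1, a lysosomal anchor of amino acid sensing, rose by 0.62 (0.0250), a call lost without any 1 array (adjusted p of 0.0543 to 0.148). Foxa3, Foxa1 and Onecut1, factors of the hepatocyte lineage, fell (-0.65, -0.65 and -0.43). Their calls were each lost without control replicate 2 (adjusted p of 0.127, 0.193 and 0.240), and Onecut1 was -0.28 there. That of Foxa1 was also lost without control replicate 1 (0.0667) or KO replicate 2 (0.0859), and that of Onecut1 without KO replicate 1 (0.115) or KO replicate 2 (0.124) and with 75th percentile scaling (0.398). Of these regulators none is a member of the transporter families, and their relation to the carriers was not tested.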
